A study of Mus musculus with 12 samples.

Results

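The genes described here make up the front end of TGF-beta signalling: the ligands Tgfb1, Tgfb2 and Tgfb3, the receptors Tgfbr1 and Tgfbr2, the latent TGF-beta binding proteins Ltbp1, Ltbp2, Ltbp3 and Ltbp4, and Inhba, which encodes the subunit of activin A. They were chosen by gene symbol. All 10 were found, each once, among 78298 genes in the deposited tables, and all 10 passed the filter on low counts. Gene expression was measured by RNA-seq of poly(A) RNA in muscle tissue made from C2C12, an established line of mouse myoblasts. One group is the RGECO line, C2C12 cells that carry a genetically encoded calcium indicator, with 6 libraries. The other is wild-type C2C12 (WT), also with 6. Every tissue was grown on methacrylated gelatin and given 14 days of differentiation with 10% horse serum, 50 ng per ml of the growth factor IGF-1 and 1 mg per ml of aminocaproic acid, an inhibitor of plasmin formation. The labels do not say how the indicator was introduced, whether the RGECO line is 1 clone, or whether each replicate is a culture of its own. The p-values therefore cover only the spread among these libraries, which may be technical.

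TGF-beta is secreted in a latent form. The propeptide stays wrapped around the growth factor, and a latent binding protein ties this small complex to fibronectin and fibrillin in the matrix. Integrins or other proteins then release the growth factor, which binds the type II receptor Tgfbr2. Tgfbr2 phosphorylates the type I receptor Tgfbr1, and Tgfbr1 phosphorylates Smad2 and Smad3, which enter the nucleus with Smad4. In skeletal muscle the pathway is known as a brake on myoblast differentiation and fusion and as a driver of collagen deposition. Activin A signals to the same Smads through other receptors.

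RGECO replicate 4 held 825 counts, with 0 on these 10 genes, which allows a share of up to 0.364%, and it is left out of every value below unless all 12 libraries are named. The other libraries held 5881622 to 11926220 counts in RGECO (n = 5) and 9370322 to 11744314 in WT (n = 6). Here CPM is the count of a gene scaled to a common library size, with TMM factors, and 3 counts correspond to 0.252 to 0.510 CPM. The mitochondrial share of counts was 0.298% to 1.33% in RGECO and 0.204% to 1.68% in WT (two-sided exact permutation p = 0.381), and the Malat1 share was 0.180% to 0.645% in RGECO and 0.156% to 0.898% in WT (exact permutation p = 0.247). The number of genes with a count was lower in RGECO, at 15584 to 19410 against 18912 to 20176 in WT (two-sided exact permutation p = 0.0216), and its part in the results was not tested. Of 8 skeletal muscle markers 1 rose in RGECO, the embryonic myosin Myh3. The summed TPM of all 8 was 15155 to 20269 in RGECO and 12147 to 14596 in WT. Its largest part was Acta1, at a mean of 9485.8 TPM in RGECO and 7392.5 TPM in WT, which did not pass (edgeR adjusted p = 0.448). Of 8 fibroblast and mesenchymal markers 7 were tested, of which 2 rose (Ly6a and Dcn) and 2 fell (Pdgfrb and Col1a1). Their summed TPM was 1398 to 1917 in RGECO and 865 to 1352 in WT. Its largest part was Ly6a, at a mean of 1182 TPM in RGECO and 562 TPM in WT. The part of these markers in the results below was not tested. The macrophage markers Ptprc, Adgre1, Csf1r and Itgam, all 5 endothelial markers and the neural markers Sox10, Snap25 and Chat stayed under 1 TPM in every library. The summed TPM of smooth muscle markers was 2900 to 4258 in RGECO and 2539 to 3451 in WT, with Myh11 under 1 TPM. Most of that sum is Des, which is also a skeletal muscle marker, at a mean of 2491 TPM in RGECO and 1674 TPM in WT. Of the 3 smooth muscle markers tested, Tagln fell and Des and Acta2 did not pass, with a median log2 fold change of -0.39. That of adipocyte markers was 35.5 to 58.0 in RGECO and 7.16 to 12.8 in WT, nearly all of it Lpl, with Plin1 listed at 0. In bulk RNA, fewer cells of a type and less RNA per cell cannot be told apart.

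Of the 10 genes, Ltbp2, Inhba and Tgfbr2 were lower in RGECO, by 1.01, 0.75 and 0.40 on the log2 scale. None of the 10 rose, at adjusted p 0.05 or at an unadjusted p under 0.05, by edgeR or by DESeq2. The TGF-beta ligands Tgfb1, Tgfb2 and Tgfb3 and the binding protein Ltbp1 gave differences of 0.01 to 0.12 on the log2 scale that did not pass. Over all 13318 genes tested, 4.93% were called lower and 3.42% higher in RGECO, 8.35% in all (quasi-likelihood test of edgeR, adjusted p 0.05). On log2(TPM + 1) the split turned to 325 higher and 239 lower, against 456 higher and 656 lower on counts. The median log2 fold change was -0.18 over the 10 genes and -0.01 over all genes tested. The CPM ranges of the lines did not overlap for the same 3 genes, and did not for 7.97% of all genes tested.

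**Figure D1:**
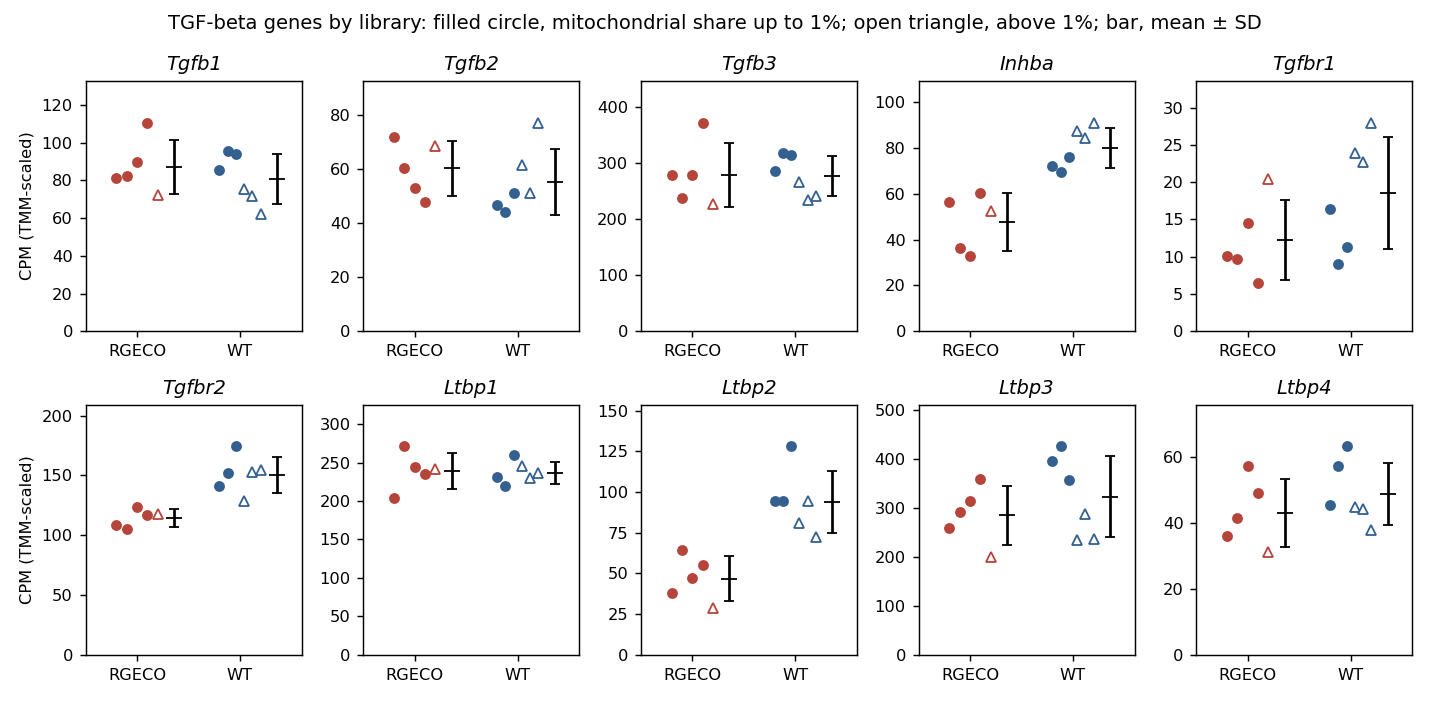
TMM-scaled CPM of the 10 genes, with 1 point per library, RGECO (n = 5) left of WT (n = 6), and the mean ± SD as a bar. Open triangles are libraries with a mitochondrial share above 1%. The ranges of the lines are apart for Inhba, Tgfbr2 and Ltbp2 and overlap for the other 7 genes.

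Ltbp2 (ENSMUSG00000002020, chromosome 12: 84783212 to 84876532, minus strand, GRCm38) encodes a fibrillin-binding matrix protein that, unlike its relatives, is not known to bind latent TGF-beta. It had 37.8, 64.4, 47.4, 55.3 and 29.1 CPM in RGECO replicates 1, 2, 3, 5 and 6. In the WT libraries it had 72.1 CPM at the lowest, 94.2 at the median and 128 at the highest. The lines did not overlap, and the highest RGECO library lay under the lowest WT library. The log2 fold change was -1.01 ± 0.19 (SE, 95% interval -1.42 to -0.60, edgeR adjusted p = 0.00383), about 0.497 of the WT level. The call held without any 1 library (adjusted p = 0.00327 to 0.0155 by edgeR). It passed with all 12 libraries too (adjusted p = 2.62e-04 by edgeR), but the added RGECO replicate 4 held 825 counts and 0 on these genes. That fit is therefore no further support. In TPM, which is corrected for transcript length, Ltbp2 was 10.6 ± 2.04 in RGECO (SD, n = 5) and 19.0 ± 5.81 in WT (SD, n = 6). RGECO replicate 6 had the lowest CPM of the line but 12.2 TPM, the second highest, so the order of libraries depended on the scale. On log2(TPM + 1) the log2 fold change was -0.76 (limma adjusted p = 0.0469), and it lost its call there without a filter on low values (adjusted p = 0.0979).

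Inhba (ENSMUSG00000041324, chromosome 13: 16011851 to 16031621, plus strand, GRCm38) encodes the beta A chain, which pairs with itself to form activin A. It had 56.6, 36.2, 32.8, 60.6 and 52.5 CPM in RGECO replicates 1, 2, 3, 5 and 6. In WT its lowest, median and highest values were 69.4, 80.3 and 91.1 CPM. The lines did not overlap, although RGECO replicates 2 and 3 lay well below the other RGECO libraries. The log2 fold change was -0.75 ± 0.16 (SE, 95% interval -1.09 to -0.41, edgeR adjusted p = 0.00797), about 0.594 of the WT level, and the call held without any 1 library (edgeR adjusted p = 0.00546 to 0.0295). In TPM the lines did overlap, with 16.7 to 37.0 in RGECO and 33.7 to 47.4 in WT. The log2 fold change on log2(TPM + 1) was -0.73, close to that on counts, and missed the threshold (limma adjusted p = 0.0589).

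Tgfbr2 (ENSMUSG00000032440, chromosome 9: 116084293 to 116175360, minus strand, GRCm38), the type II receptor that binds the ligand first, had 109, 105, 124, 117 and 118 CPM in RGECO replicates 1, 2, 3, 5 and 6. In WT its lowest, median and highest values were 129, 152 and 174 CPM. On CPM the RGECO libraries were tightly grouped and all lay under the WT range. The log2 fold change was -0.40 ± 0.10 (SE, 95% interval -0.61 to -0.19, edgeR adjusted p = 0.0202), about 0.760 of the WT level. This is the least stable call of the 3. It was lost without RGECO replicate 2 or 6 or WT replicate 3 or 5, each taken alone (edgeR adjusted p = 0.0812, 0.0532, 0.0619 and 0.0603), and without a filter on low counts (edgeR adjusted p = 0.0664). With all 12 libraries it was lost too (edgeR adjusted p = 0.430), where the added RGECO replicate 4 held 825 counts. In TPM it was 34.0 ± 1.48 in RGECO (SD, n = 5) and 41.2 ± 6.43 in WT (SD, n = 6). The lines overlapped there, with 32.6 to 36.4 TPM in RGECO and 35.0 to 50.5 TPM in WT. The log2 fold change on log2(TPM + 1) was -0.26 (limma adjusted p = 0.273).

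Tgfbr1 (ENSMUSG00000007613, chromosome 4: 47353222 to 47414931, plus strand, GRCm38), the type I receptor kinase that passes the signal to the Smads, was the lowest of the 10 genes. It had 10.1, 9.6, 14.5, 6.5 and 20.5 CPM in RGECO replicates 1, 2, 3, 5 and 6. In WT its lowest, median and highest values were 9.0, 19.6 and 28.0 CPM, so the ranges overlapped widely. The log2 fold change of -0.59 ± 0.32 (SE, 95% interval -1.27 to 0.09, edgeR adjusted p = 0.307) did not pass, and the interval does not bound the change within 2-fold. The ratio of Tgfbr2 to Tgfbr1 could not be shown to differ between the lines, with a log2 ratio of 3.33 ± 0.60 in RGECO (SD, n = 5) and 3.13 ± 0.72 in WT (SD, n = 6; two-sided exact permutation p = 0.597, adjusted p = 0.768).

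**Figure D2:**
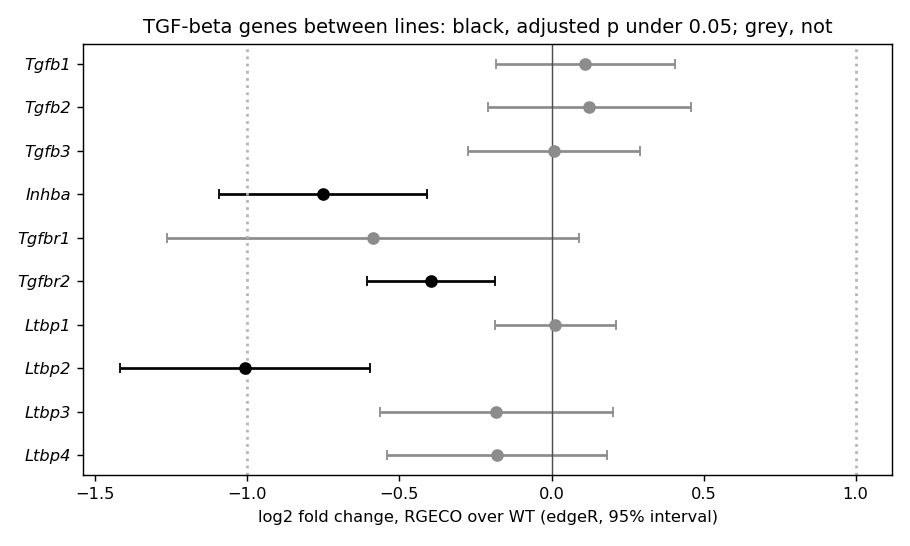
Log2 fold change of RGECO over WT with its 95% interval for each of the 10 genes, from edgeR on 5 RGECO and 6 WT libraries. Dotted lines mark a 2-fold change. Inhba, Tgfbr2 and Ltbp2 (black) passed adjusted p 0.05, and the intervals of Inhba, Tgfbr1 and Ltbp2 reach past a 2-fold decrease.

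The start regions of the 3 genes that fell are shown because they were called together and a reader may want to compare them. Each line gives the bases from 250 to 51 before the RefSeq start (GRCm38.p6), 5′ to 3′ on the gene's strand, from chr12:84876542-84876741 (minus) for Ltbp2, chr13:16011601-16011800 (plus) for Inhba and chr9:116175414-116175613 (minus) for Tgfbr2. Capitals mark CAGAC on either strand, the core letters that Smad3 and Smad4 bind, and TATAAA on either strand, the letters of a TATA box. The windows end 51 bases before the start and leave out the bases next to it, so a TATAAA match here is of letters only.
Ltbp2: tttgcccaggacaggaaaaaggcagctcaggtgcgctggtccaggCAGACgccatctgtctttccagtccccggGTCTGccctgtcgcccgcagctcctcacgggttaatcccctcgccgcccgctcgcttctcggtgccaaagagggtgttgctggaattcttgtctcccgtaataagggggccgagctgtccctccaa
Inhba: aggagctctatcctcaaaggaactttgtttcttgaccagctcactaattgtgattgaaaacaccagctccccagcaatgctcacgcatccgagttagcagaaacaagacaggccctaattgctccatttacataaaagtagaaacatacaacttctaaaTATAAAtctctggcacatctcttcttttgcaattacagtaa
Tgfbr2: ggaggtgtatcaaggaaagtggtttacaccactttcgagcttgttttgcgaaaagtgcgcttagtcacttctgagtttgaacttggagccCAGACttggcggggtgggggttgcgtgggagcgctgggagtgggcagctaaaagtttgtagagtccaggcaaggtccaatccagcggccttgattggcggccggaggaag

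These 3 windows had little in common. CAGAC occurred 2 times in Ltbp2, 1 time in Tgfbr2 and 0 times in Inhba, and TATAAA occurred 1 time in Inhba alone. CAGAC was present in 35.8% and TATAAA in 9.14% of 32851 windows of the same length over all genes of the RefSeq table. Of the 10 genes, 9 had a window in that table, Tgfb3 being the exception, and 6 of the 9 held CAGAC in at least 1 window, which is 7 of their 13 windows or 53.8%. TGANTCA, the AP-1 element, and GGAATG, the TEAD element, searched on both strands as well, occurred in none of their windows, against 5.57% and 10.7% of all windows. The G and C content was 62.0% for Ltbp2, 39.5% for Inhba and 55.0% for Tgfbr2. The motifs do not overlap one another in the windows printed. A match of letters is a description and not a binding site.

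None of the 3 TGF-beta ligands passed between the lines in the main fit, and equality of their levels was not tested. Tgfb3 (ENSMUSG00000021253, chromosome 12: 86056745 to 86079041, GRCm38) was the most abundant of them. It had 278, 238, 278, 371 and 227 CPM in RGECO replicates 1, 2, 3, 5 and 6, and 233, 276 and 318 CPM at the lowest, median and highest WT library. Its log2 fold change was 0.01 ± 0.13 (SE, 95% interval -0.27 to 0.29, edgeR adjusted p = 0.981), with a sign that turned under several settings. Tgfb1 (ENSMUSG00000002603, chromosome 7: 25687002 to 25705077, GRCm38), the ligand best known from fibrosis, had 81.3, 82.1, 89.5, 111 and 72.5 CPM in RGECO replicates 1, 2, 3, 5 and 6. In WT it had 61.9, 80.4 and 95.5 CPM at the lowest, median and highest library. Its log2 fold change was 0.11 ± 0.14 (SE, 95% interval -0.18 to 0.41, edgeR adjusted p = 0.703). Tgfb2 (ENSMUSG00000039239, chromosome 1: 186622792 to 186705989, GRCm38), whose propeptide lacks the RGD motif that integrins bind in Tgfb1 and Tgfb3, had 71.9, 60.4, 52.9, 47.8 and 68.5 CPM in RGECO replicates 1, 2, 3, 5 and 6. In WT it had 44.0, 51.2 and 77.2 CPM at the lowest, median and highest library. Its log2 fold change was 0.12 ± 0.16 (SE, 95% interval -0.21 to 0.46, edgeR adjusted p = 0.707), and once the Malat1 share entered the fit it passed at 0.32 (edgeR adjusted p = 0.0411). For each of these 3 genes the ranges of the lines overlapped and the 95% interval lay inside 2-fold, as it did for 74.0% of all genes tested.

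Per length, the make-up of the ligand pool was also compared between the lines. Tgfb3 held 56.1% ± 3.62 of the summed TPM of the 3 genes in RGECO (SD, n = 5) and 57.5% ± 2.49 in WT (SD, n = 6). Tgfb1 held 28.5% ± 1.52 in RGECO and 28.4% ± 2.86 in WT. Tgfb2 held 15.3% ± 4.18 in RGECO and 14.1% ± 3.35 in WT, and its lowest share, 8.14%, was in RGECO replicate 5, the library with the fewest counts. The ranges overlapped for all 3 shares. The log2 ratios of Tgfb2 to Tgfb1, Tgfb3 to Tgfb1 and Tgfb3 to Tgfb2 differed between the lines by 0.02, -0.12 and -0.14, RGECO minus WT (two-sided exact permutation p = 0.944, 0.0649 and 0.615). With the ratios within the other families these make 10 pairs, and their p-values adjusted over the 10 were 0.944, 0.162 and 0.768.

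**Figure D3:**
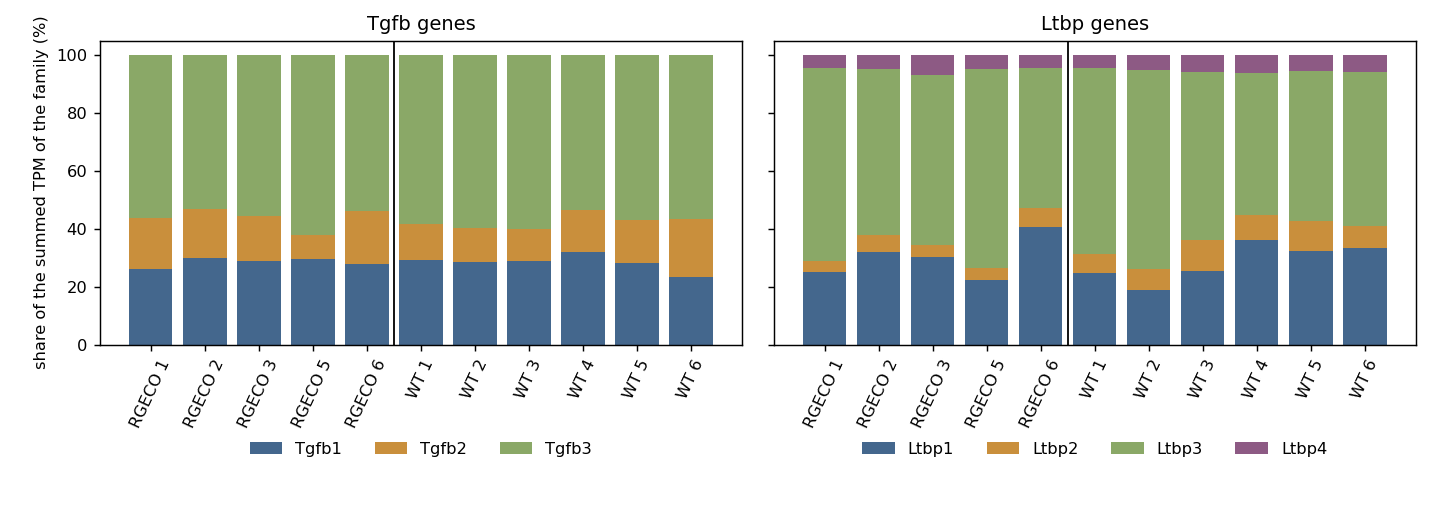
Share of each gene in the summed TPM of its family, with 1 bar per library, RGECO left of the line and WT right of it. Tgfb3 made up 53.0% to 62.2% of the ligand TPM in RGECO and 53.3% to 60.02% in WT. Ltbp2 made up 3.72% to 6.52% of the Ltbp TPM in RGECO and 6.78% to 10.7% in WT.

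Among the latent binding proteins, Ltbp2 differed between the lines and the calls of the other 3 did not pass. Ltbp1 (ENSMUSG00000001870, chromosome 17: 75005568 to 75392512, GRCm38), which carries all 3 TGF-beta ligands into the matrix, had 204, 271, 244, 235 and 241 CPM in RGECO replicates 1, 2, 3, 5 and 6. In WT it had 219, 233 and 260 CPM at the lowest, median and highest library. With a log2 fold change of 0.01 ± 0.09 (SE, 95% interval -0.19 to 0.21, edgeR adjusted p = 0.962) it had the narrowest interval of the 10 genes. Ltbp3 (ENSMUSG00000024940, chromosome 19: 5740904 to 5758532, GRCm38), another carrier of latent TGF-beta, had 258, 293, 316, 360 and 200.1 CPM in RGECO replicates 1, 2, 3, 5 and 6. In WT it ranged more widely, with 234, 323 and 426 CPM at the lowest, median and highest library. Its log2 fold change was -0.18 ± 0.18 (SE, edgeR adjusted p = 0.616) on counts and 0.08 on log2(TPM + 1) (limma adjusted p = 0.874), so its direction depended on the unit. Ltbp4 (ENSMUSG00000040488, chromosome 7: 27305136 to 27337692, GRCm38), known for its part in elastic fibre assembly, had 36.1, 41.6, 57.4, 49.0 and 31.3 CPM in RGECO replicates 1, 2, 3, 5 and 6. In WT it had 37.8, 45.3 and 63.2 CPM at the lowest, median and highest library. Its log2 fold change was -0.18 ± 0.17 (SE, edgeR adjusted p = 0.595).

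The fall of Ltbp2 was also read against each of its relatives within a library, a measure that does not depend on how libraries are scaled. These ratios reuse the Ltbp2 values already called, so they are not separate support. The log2 ratio of Ltbp2 to Ltbp1 was -2.40 ± 0.40 in RGECO (SD, n = 5) and -1.35 ± 0.26 in WT (SD, n = 6). The ranges did not overlap (two-sided exact permutation p = 0.00433, the smallest that 462 assignments can give, adjusted p = 0.0144 over 10 pairs). The log2 ratios of Ltbp3 and of Ltbp4 to Ltbp2 were higher in RGECO by 0.87 and 0.85, each with the same exact permutation p of 0.00433 and adjusted p of 0.0144. On TPM these last ratios differed by 0.90 and 0.73 and missed the threshold (exact permutation, adjusted p = 0.0577 for each). The ratios of Ltbp3 to Ltbp1, Ltbp4 to Ltbp1 and Ltbp4 to Ltbp3 did not pass (exact permutation, adjusted p = 0.768, 0.597 and 0.944). These 10 pairs are every pair within the 3 families, and testing them was decided after the values were seen. As a share of the summed TPM of the 4 Ltbp genes, Ltbp2 held 4.86% ± 1.23 in RGECO (SD, n = 5) and 8.60% ± 1.59 in WT (SD, n = 6), without overlap.

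Per length, Ltbp3 and Tgfb3 had the highest levels of the 10 genes, at 133 ± 28.0 and 109 ± 19.3 TPM in RGECO (SD, n = 5) and 127 ± 33.2 and 101 ± 10.9 TPM in WT (SD, n = 6). Their ranges overlapped in each line. Ltbp1 at 65.2 ± 9.52 TPM in RGECO and 60.7 ± 9.29 TPM in WT and Tgfb1 at 55.3 ± 6.69 TPM in RGECO and 49.8 ± 7.63 TPM in WT followed, again with overlapping ranges. The next group held Tgfbr2, Tgfb2 and Inhba. In WT, Tgfbr2 at 35.0 to 50.5 TPM and Inhba at 33.7 to 47.4 TPM overlapped, and Tgfb2, at 24.8 ± 6.74 TPM, had the lower mean. In RGECO, Inhba at 25.7 ± 9.38 TPM lay below Tgfb2 at 29.3 ± 7.37 TPM on average, with overlapping ranges. Ltbp2 was at 8.48 to 13.1 TPM in RGECO and 15.0 to 29.5 TPM in WT. It thus overlapped with Ltbp4 in RGECO, at 8.26 to 14.9 TPM, as it did in WT, where Ltbp4 was at 9.62 to 15.8 TPM. Tgfbr1 was lowest, at 3.81 ± 1.98 TPM in RGECO and 5.63 ± 1.88 TPM in WT.

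Several of the genes differed between libraries of high and low mitochondrial share of counts, which in RGECO rests on 1 library. A split at a share of 1%, chosen after the values were seen, puts RGECO replicate 6 and WT replicates 4, 5 and 6 above it. Tgfbr1 was at 20.5 CPM in that RGECO library and 6.5 to 14.5 CPM in the other 4, and at 22.7 to 28.0 CPM in those 3 WT libraries and 9.0 to 16.4 CPM in the other 3. Ltbp3 ran the other way, at 200.1 CPM above the split and 258 to 360 CPM below it in RGECO, and at 234 to 287 CPM above and 358 to 426 CPM below it in WT. Tgfb1, Tgfb3 and Ltbp4 were likewise lower above the split in each line, without overlap, and Ltbp1 and Tgfbr2 overlapped in each line. Tgfb2 was at 51.3 to 77.2 CPM above the split and 44.0 to 51.2 CPM below it in WT, and overlapped in RGECO. Ltbp2 was at 29.1 CPM above the split and 37.8 to 64.4 CPM below it in RGECO, and overlapped in WT. Inhba was at 84.4 to 91.1 CPM above the split and 69.4 to 76.1 CPM below it in WT, while in RGECO these libraries overlapped.

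The levels of the 3 genes called are given on each side of this split as a description, with no test. In libraries with a mitochondrial share up to 1%, Ltbp2 was at 37.8 to 64.4 CPM in RGECO (n = 4) and 94.2 to 128 CPM in WT (n = 3), Inhba at 32.8 to 60.6 CPM in RGECO and 69.4 to 76.1 CPM in WT, and Tgfbr2 at 105 to 124 CPM in RGECO and 141 to 174 CPM in WT. Above it there is 1 RGECO library, with 29.1, 52.5 and 118 CPM for these genes, below the 72.1 to 94.3, 84.4 to 91.1 and 129 to 154 CPM of the 3 WT libraries. The CPM ranges of the lines do not overlap for these genes over all libraries used. The order on each side was therefore fixed before the split and is no further support. With the mitochondrial share as a covariate the log2 fold changes were -1.14 for Ltbp2, -0.70 for Inhba and -0.42 for Tgfbr2 (edgeR adjusted p = 1.11e-04, 0.00255 and 0.00154), and Ltbp3 passed too, at -0.35 (edgeR adjusted p = 0.00560). That fit called 3133 of all 13318 genes, against 1112 without the covariate, so the gain in calls is not particular to these genes.

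**Figure D4:**
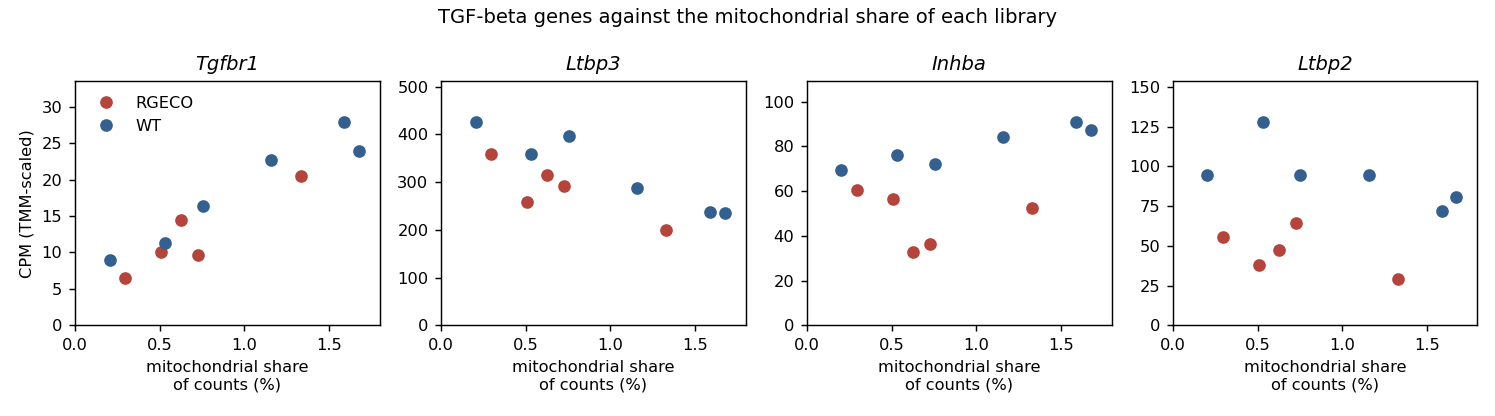
TMM-scaled CPM of Tgfbr1, Ltbp3, Inhba and Ltbp2 (y axes) against the mitochondrial share of counts in percent (x axes), with 1 point per library, RGECO in red and WT in blue. Within each line, Tgfbr1 is higher and Ltbp3 lower in the libraries above 1%, of which RGECO has 1. The RGECO points of Inhba and Ltbp2 lie below every WT point.

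Strand is not stated in the sources used here, so reads of genes that overlap on opposite strands cannot be told apart. The value of Ltbp3 is uncertain for this reason. In the GENCODE M21 annotation, exons of Ltbp2 overlap those of D030025P21Rik, whose counts were 0.517% of those of Ltbp2. The antisense genes at Tgfb2 and Tgfb3 had 0 to 2 counts in any library. No other gene's exons overlap those of Tgfb1, Tgfbr1, Tgfbr2, Ltbp1, Ltbp4 or Inhba there. The estimated counts of all 10 genes were whole to within 0.001, so few reads were split with other genes.

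The remaining genes of the pathway were read from lists of receptors, Smads, activin-family genes, matrix and activation genes and target genes, 64 genes in all. Of these, 60 were tested, and 6 were higher and 15 lower in RGECO (edgeR adjusted p 0.05), against 3.42% and 4.93% of all genes tested. The lists were written with earlier results of these data known, so this count and those of the single lists below are descriptions. Their median log2 fold change was -0.16.

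Among the other receptors 8 of 9 were tested, 1 rose and 1 fell, and the median log2 fold change was -0.27. Tgfbr3, betaglycan, the co-receptor that presents Tgfb2 to Tgfbr2, was at 19.3 to 22.6 CPM in RGECO and 38.0 to 57.0 CPM in WT, a log2 fold change of -1.13 ± 0.13 (SE, edgeR adjusted p = 5.78e-05), and its call held under every alternative tried. Acvrl1, the type I receptor known from endothelium that signals to the BMP branch of Smads, was at 10.3 to 18.6 CPM in RGECO and 3.05 to 6.65 CPM in WT, a log2 fold change of 1.42 ± 0.23 (SE, edgeR adjusted p = 0.00101). The endothelial markers were near 0, as given above. The activin receptors Acvr1b at 0.24, Acvr2a at 0.03 and Acvr2b at -0.46 did not pass (edgeR adjusted p = 0.213, 0.962 and 0.566), and for Acvr1b the ranges of the lines did not overlap.

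Of 14 Smads and their regulators 0 rose (DESeq2 0, and 0 by edgeR at an unadjusted p under 0.05) and 3 fell, with a median of -0.26. The signalling Smads Smad2 at 0.11, Smad3 at 0.16 and Smad4 at -0.06 did not pass, and each 95% interval lay inside 2-fold. The 3 that fell are feedback regulators of the pathway. Pmepa1, which keeps Smad2 and Smad3 from the receptor, was at 30.8 to 46.7 CPM in RGECO and 58.1 to 90.0 CPM in WT, a log2 fold change of -0.83 ± 0.14 (SE, edgeR adjusted p = 0.00150). Smad7, the inhibitory Smad, was at 12.2 to 19.8 CPM in RGECO and 19.9 to 30.3 CPM in WT, a log2 fold change of -0.62 (edgeR adjusted p = 0.0345). Tgif1, a corepressor, had a log2 fold change of -0.47 (edgeR adjusted p = 0.0327). The calls of Smad7 and Tgif1 were lost in 7 and 9 of the 11 fits that leave out 1 library, with edgeR adjusted p up to 0.110 and 0.109.

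Of 9 ligands and antagonists of the activin and myostatin family 1 rose and 1 fell, with a median of 0.04. Inhbb, the beta B chain of activin B, was at 15.0 to 35.9 CPM in RGECO and 30.3 to 56.2 CPM in WT, a log2 fold change of -0.89 ± 0.24 (SE, edgeR adjusted p = 0.0288), and its call was lost in 6 of the 11 fits without 1 library (edgeR adjusted p up to 0.0988). Fstl1, a secreted relative of follistatin, rose by 0.34 on the log2 scale (edgeR adjusted p = 0.0494) and lost its call in 9 of those fits (edgeR adjusted p up to 0.127). Follistatin (Fst), the antagonist of activin A, at 0.04 and myostatin (Mstn) at -1.32 did not pass (edgeR adjusted p = 0.918 and 0.169). Mstn was low, at 0 to 1.48 CPM in RGECO and 0.892 to 3.40 CPM in WT.

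**Figure D5:**
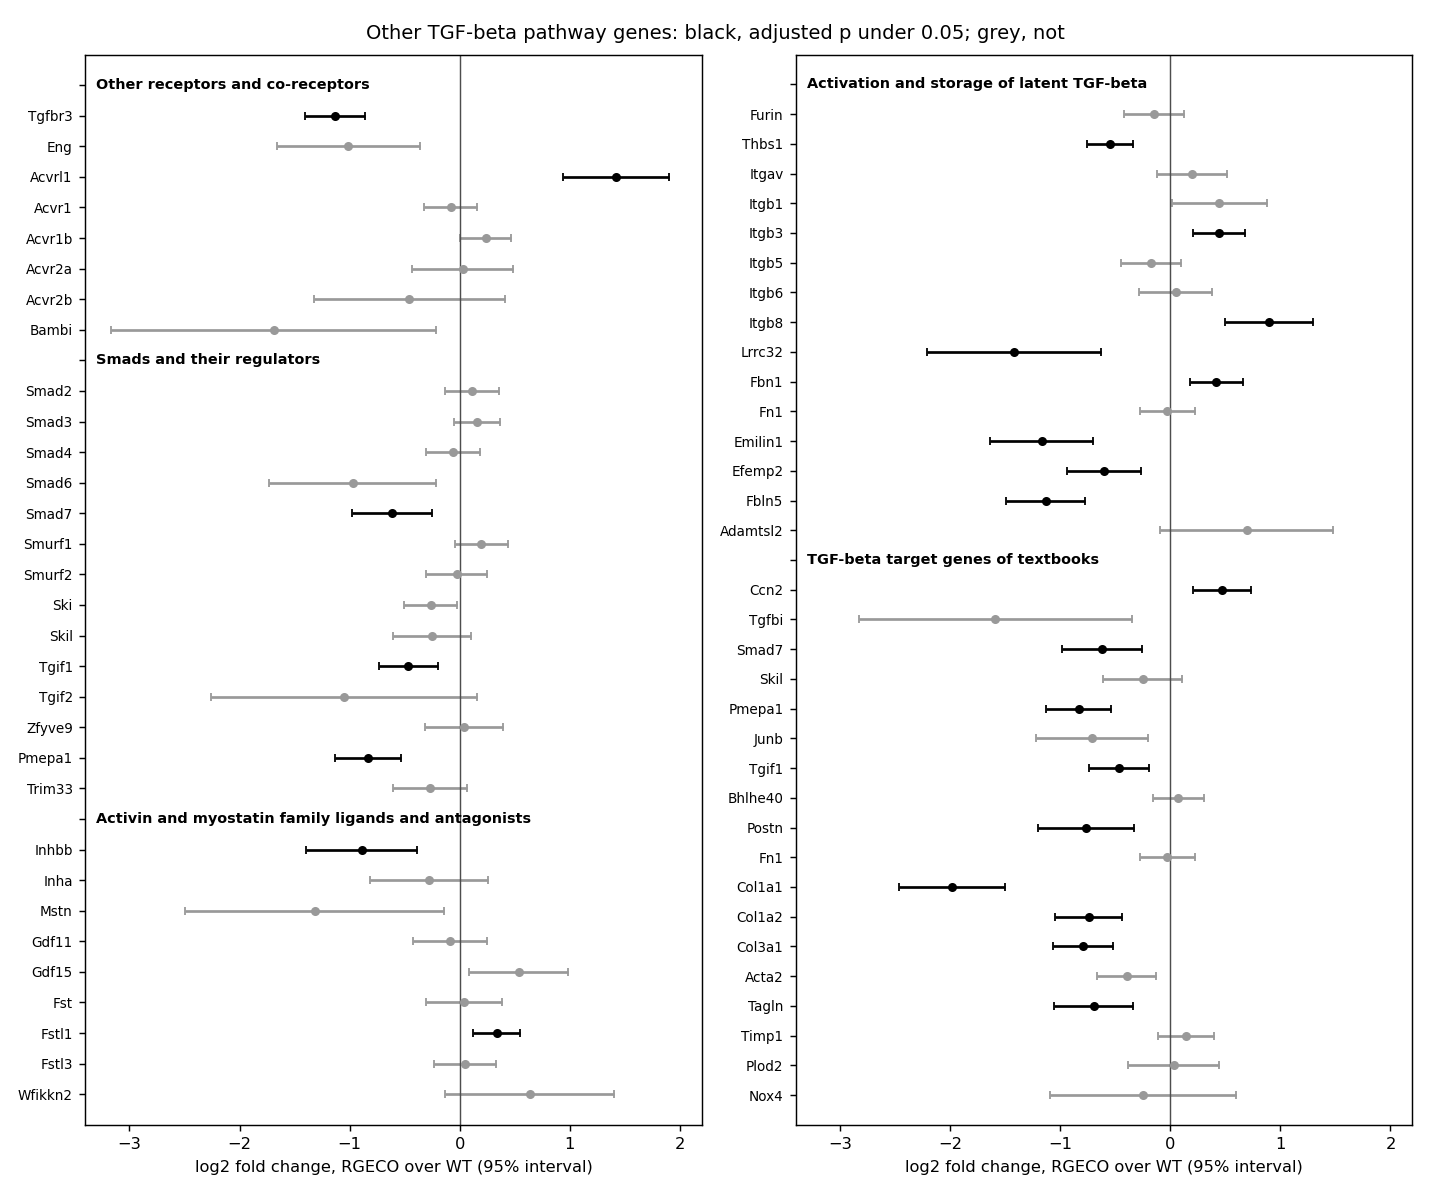
Log2 fold change of RGECO over WT with its 95% interval for the tested genes of the other pathway lists that are reported here, from edgeR on 5 RGECO and 6 WT libraries. Genes past adjusted p 0.05 are black: 6 lie right of 0 and 15 left of it, and Smad7, Pmepa1, Tgif1, Skil and Fn1 appear in more than 1 list.

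Genes that store and release latent TGF-beta moved in either direction. Of 17 listed, 15 were tested, 3 rose and 5 fell, with a median of -0.03. Itgb8, the integrin chain that releases TGF-beta from its propeptide, was at 18.4 to 27.5 CPM in RGECO and 8.20 to 15.2 CPM in WT, a log2 fold change of 0.90 ± 0.19 (SE, edgeR adjusted p = 0.00688). Itgb3, another integrin chain, rose by 0.44 and Fbn1, the fibrillin to which latent complexes attach, by 0.42 on the log2 scale (edgeR adjusted p = 0.0231 and 0.0305). These calls were lost in 3 and 6 of the 11 fits without 1 library, with edgeR adjusted p up to 0.0621 and 0.0921. Thbs1, thrombospondin 1, a known activator of latent TGF-beta, was at 719 to 927 CPM in RGECO and 1107 to 1312 CPM in WT, a log2 fold change of -0.55 ± 0.10 (SE, edgeR adjusted p = 0.00271). With all 12 libraries, and so with the near-empty RGECO replicate 4, Thbs1 missed the threshold (edgeR adjusted p = 0.703).

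The other 4 that fell are Fbln5 at -1.13 and Efemp2 at -0.60, fibulins of elastic fibres, Emilin1 at -1.17, a matrix protein that limits TGF-beta maturation, and Lrrc32 at -1.42, which holds latent TGF-beta on the cell surface (edgeR adjusted p = 6.09e-04, 0.0255, 0.00349 and 0.0264). Lrrc32 was low, at 0.671 to 2.26 CPM in RGECO and 2.33 to 4.91 CPM in WT, and its call was lost in 4 of the 11 fits without 1 library, as that of Efemp2 was in 6 (edgeR adjusted p up to 0.0780 and 0.0829).

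Of 20 target genes known from textbooks 19 were tested, 1 rose and 8 fell, with a median of -0.47. Over all genes tested 3.42% were called higher and 4.93% lower. Pmepa1, Smad7 and Tgif1 are counted here and among the Smads and their regulators, so the 2 lists are not separate. Those that fell were Pmepa1, Smad7 and Tgif1, described above, the matrix genes Col1a1 at -1.98, Col3a1 at -0.80, Postn at -0.77 and Col1a2 at -0.74, and the actin-binding gene Tagln at -0.70 (edgeR adjusted p = 7.18e-05, 0.00106, 0.0283, 0.00417 and 0.0178 for the last 5). Ccn2, a matricellular gene, rose by 0.47 (edgeR adjusted p = 0.0267). The calls of Postn, Ccn2 and Tagln were lost in 5, 4 and 3 of the 11 fits without 1 library (edgeR adjusted p up to 0.0731, 0.0776 and 0.0544). On log2(TPM + 1), Tgfbr3, Acvrl1, Thbs1, Fbln5, Col1a1 and Col3a1 of the genes named here kept their calls, Lrrc32 was too low to be tested, and the others lost them, among them Pmepa1, Itgb8, Emilin1 and Col1a2 (limma adjusted p = 0.0675, 0.0679, 0.0679 and 0.152). With all 12 libraries the calls of Col1a1, Col1a2, Col3a1, Postn, Tagln and Ccn2 were lost (edgeR adjusted p = 0.0511, 0.642, 0.657, 0.0728, 0.0887 and 0.878). The library added there, RGECO replicate 4, held 825 counts in all.

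The genes whose pattern over the 11 libraries was most like that of each gene called were found by the mean absolute difference of standardised log2 CPM, in SD, among 7749 genes whose log2 CPM averaged 4 or more. For Ltbp2 they were Fat4, a giant cadherin, at 0.205 SD and Slc3a2, an amino acid transporter chain, at 0.256 SD. For Inhba they were Mrs2, a magnesium channel of mitochondria, at 0.218 SD and Gclc, an enzyme of glutathione synthesis, at 0.229 SD. For Tgfbr2 they were B4galt5, a galactosyltransferase, at 0.181 SD and Fzd1, a Wnt receptor, at 0.249 SD. Over all genes compared the median was 1.15 SD for Ltbp2 and Tgfbr2 and 1.16 SD for Inhba. Being chosen for likeness to genes that fell, all 6 had negative log2 fold changes, from -0.39 for Mrs2 to -0.83 for Fat4. This sign follows from the choice and is no result of its own. Of the 6, Mrs2 did not pass (edgeR adjusted p = 0.0552).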

How the data were processed

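The tables used hold estimated counts and TPM per gene, written by Salmon and merged by the authors, as the file names say. Estimated counts were deposited without any scaling. TPM, as deposited, takes transcript length into account and sums to 1000000 in a library. The submitters' processing notes list BWA 0.7.12-r1039, bedtools 2.25.0, STAR, Salmon and the builds GRCm39, mm10 and hg19. What each was used for, the annotation and the strandedness are not stated there. Gene coordinates are those of GENCODE M21 (GRCm38), matched by gene ID.

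For tests, estimated counts were rounded and fitted by edgeR 4.0.16 (R 4.3.3; filterByExpr, TMM, robust quasi-likelihood F test), 5 RGECO against 6 WT libraries, two-sided, with Benjamini-Hochberg adjustment over 13318 genes and a threshold of 0.05. The common coefficient of variation was 25.2%. RGECO replicate 4 was left out because it held fewer than 1000000 counts. Among 25 within-line pairs chi-square per degree of freedom was at least 7.23, so none was treated as a duplicate. Standard errors and 95% intervals were taken from the F statistic. Limma 3.58.1 on log2(TPM + 1), for genes of at least 1 TPM in 5 libraries, and DESeq2 1.42.0 were alternatives, and a fold change on log2(TPM + 1) understates the change of low genes. Exact permutation tests used all 462 assignments (scipy 1.17.1). Scripts were tested on simulated counts. Floors cover counting error only. The genes, lists and tests were chosen with earlier results of these data known. Named genes are the 10 genes of the family, listed pathway genes that passed, a set of key pathway genes whether or not they passed, and the 2 genes most like each gene called. Some items of the lists enter the counts but are not reported here.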

Additional observations from a re-analysis of the deposited data

Results flagged for a closer look

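Of 78 groups of libraries checked for a single library far from its group, 3 were noted, and chance alone gives about 1 in 20. The Ltbp4 share of the summed Ltbp TPM was 6.83% in RGECO replicate 3, against 4.42% to 4.99% in the other RGECO libraries. The log2 ratio of Ltbp3 to Ltbp2 was 2.18 in RGECO replicate 2, against 2.70 to 2.78 in the other RGECO libraries. That library had 64.4 CPM of Ltbp2, the highest of the line. Tgfb3 was at 121 TPM in WT replicate 3, against 92.7 to 103 TPM in the other WT libraries, while its CPM there lay inside the range of the line.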

How the results depend on the processing

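Genes called numbered 1112, of 10 members 3 and of 60 other pathway genes 21. On log2(TPM + 1) these were 564, 1 and 7, with 0.1 added 527, 1 and 7, and with no filter 310, 0 and 3 (limma, with 3 members lower at an unadjusted p under 0.05). With the mitochondrial share as a covariate they were 3133, 4 and 32, and with the Malat1 share 2771, 5 and 28. With all 12 libraries they were 820, 2 and 12. With the replicate number as a block they were 777, 3 and 13. The deviations of same-numbered libraries from their line means had correlations of -0.15 to 0.36, the highest for replicate 6. These cannot decide whether libraries of a number share a batch, which the labels do not say. Leaving out 1 library gave 785 to 1140 genes, 2 to 3 members and 13 to 19 pathway genes, the last falling to 13 without RGECO replicate 2 or WT replicate 1. DESeq2 called 1595 genes and 3 members. On CPM the Ltbp2 share differed by -5.84 percentage points, against -3.74 on TPM. The cause of these shifts was not tested.

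Genes near 0 turned sign without being called. With no filter on low counts, all 12 libraries, the replicate block, the mitochondrial and the Malat1 covariate, Tgfb3 was at -0.0023, -0.12, -0.0124, -0.10 and -0.0815. Tgfb1 was at -0.0164 with the Malat1 covariate and Ltbp1 at -0.10 with all 12 libraries. On log2(TPM + 1), filtered or not, Ltbp3 was at 0.0754, Smad4 at 0.0392 and Acvr2a at -0.16, and with 0.1 added at 0.0761, 0.0392 and -0.17. Without 1 library, Tgfb3 ranged from -0.12 to 0.0926, Ltbp1 from -0.0219 to 0.0645, Smad4 from -0.15 to 0.0117, Acvr2a from -0.0879 to 0.18 and Fst from -0.0589 to 0.14. The log2 ratios likewise ranged from -0.11 to 0.0426 for Ltbp4 to Ltbp3, -0.0939 to 0.19 for Tgfb2 to Tgfb1 and -0.0038 to 0.41 for Tgfbr2 to Tgfbr1. Of 210 alternative values of the 10 members, 179 kept direction and side of the threshold. Tgfbr1 had 37 to 288 counts in a library, the fewest of the 10 members.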
